A study of Homo sapiens with 12 samples.

Results

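The response to doxycycline was examined in the HPB-ALL line that carries inducible LMO1 without TAL1. Its 4 libraries, of the 12 in the series, were chosen by their labels. HPB-ALL is an established line grown from a T-cell leukaemia of the acute lymphoblastic kind (T-ALL). The cells had been infected with lentivirus, put under drug selection for 36 h starting 48 h after infection, and grown in medium with 10% tetracycline-free serum. There were 2 libraries of the LMO1 line with DMSO, the vehicle, and 2 with doxycycline, the drug that switches the transgene on. The TAL1 line and the TAL1/LMO1 line, made in the same parental cells and sampled in the same way, served for comparison. All 6 groups had been infected and selected, so the DMSO libraries also come from transduced cells. A line without a transgene was not analysed here, so an effect of doxycycline itself and an effect of LMO1 cannot be told apart within the LMO1 line. The dose and duration of doxycycline, the promoter of the construct, whether the line is 1 clone, and whether the replicates are separate cultures are not known from the labels. The p-values therefore measure the spread between these libraries, which may be technical.

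LMO1 is a LIM-only protein. It does not bind DNA itself. Its LIM domains join the scaffold protein LDB1 to basic helix-loop-helix dimers, such as TAL1 with an E protein (TCF3 or TCF12), and to GATA factors, and such complexes sit at E-box and GATA sequences of regulatory regions. LMO1 is silent in most T cells and is switched on in part of T-ALL, often together with TAL1, which is why its action without TAL1 is of interest.

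The 4 libraries held 15759753 and 15917713 counts with DMSO and 15573556 and 15725234 with doxycycline, so depth differed little between treatments. Levels are given as CPM, a depth-scaled count, with library sizes scaled by TMM. A library in which a gene had no count could have missed up to 3 counts, or 0.198 CPM at most. CPM values of different genes are not compared, since they are not scaled for length. Markers of T cells summed to between 4974 and 5347 CPM in each library, with none of the 12 at 0 in all 4. The summed markers were 5.76 to 6.63 CPM for B cells, 1.39 to 1.57 for myeloid cells, 2.54 to 2.84 for erythroid cells, 40.3 to 49.2 for natural killer cells and 2.86 to 4.30 for epithelial and fibroblast cells. The 7 neural markers gave 48.1 to 57.2 CPM, of which DBH made up nearly all and 5 were at 0 throughout. One T-cell marker, CD7, was low in this line, at 2.62 and 2.93 CPM with DMSO against 307 and 308 CPM in the TAL1 line. The first principal component of the 4 libraries, with 39.1% of the variance, put both DMSO libraries on one side and both doxycycline libraries on the other. The second, with 31%, separated the DMSO replicates from each other.

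LMO1 itself (ENSG00000166407) stood at 3.93 and 1.76 CPM with DMSO and at 239 and 212 CPM with doxycycline. Both induced libraries were far above both vehicle libraries, so the labels held. The log2 fold change was 6.31 (SE 0.43, edgeR quasi-likelihood test, Benjamini-Hochberg adjusted p = 6.0e-04), a 79.2-fold rise. It was 6.997 without DMSO replicate 1 and 5.84 without DMSO replicate 2. In the doxycycline libraries of the TAL1/LMO1 line the LMO1 level was higher, at 1501 and 1576 CPM. Whether these reads came from the construct or the endogenous locus cannot be told apart. TAL1 was at 0.262 and 0 CPM with DMSO and at 0.132 and 0.130 CPM with doxycycline, within what a count of 0 allows in 3 of the 4 libraries. LMO1 was induced in cells with next to no TAL1 mRNA.

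Of the 18 tested members of the list of LIM-only proteins, LDB1 and their partner factors, 2 were called, meaning an adjusted p under 0.05 over all 16287 genes tested. Over all genes the share called was 2.14%. The called members were LMO1 and CBFA2T3. CBFA2T3, a corepressor found in LDB1 complexes, measured 202 and 218 CPM with DMSO and 268 and 276 CPM with doxycycline. Its treatments did not overlap, and the change was 0.37 on the log2 scale (SE 0.05, adjusted p = 2.9e-08). This response exceeded that of the TAL1 line by 0.35 (adjusted p of the difference = 0.00096).

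The other partners did not pass the test. The scaffold gene LDB1 was at 174 and 184 CPM with DMSO and 186 and 178 CPM with doxycycline, so its treatments overlapped (log2 0.02, adjusted p = 0.92). GATA3, the T-lineage GATA factor, overlapped too, with 235 and 253 against 242 and 235 CPM (-0.03, adjusted p = 0.85). The E-protein genes TCF3 (0.09, adjusted p = 0.40), TCF12 (0.04, adjusted p = 0.80) and TCF4 (0.14, adjusted p = 0.54) did not pass. RUNX1, which is found with TAL1 complexes in T-ALL, measured 198 and 192 against 213 and 217 CPM (0.14, adjusted p = 0.14). MYB (0.06, adjusted p = 0.67) and ETS1 (-0.09, adjusted p = 0.40) were not called either. SSBP2 (0.04), SSBP3 (0.02), SSBP4 (0.05), CBFA2T2 (-0.02), LYL1 (-0.03) and LMO4 (0.15) had adjusted p-values from 0.80 to 0.97. LMO2 was detected by 0.0655 CPM in a single DMSO library and was listed at 0 in the others. Of the same 18, 15 were called in the TAL1/LMO1 line, where the share of all genes called was 60.2%.

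**Figure D1:**
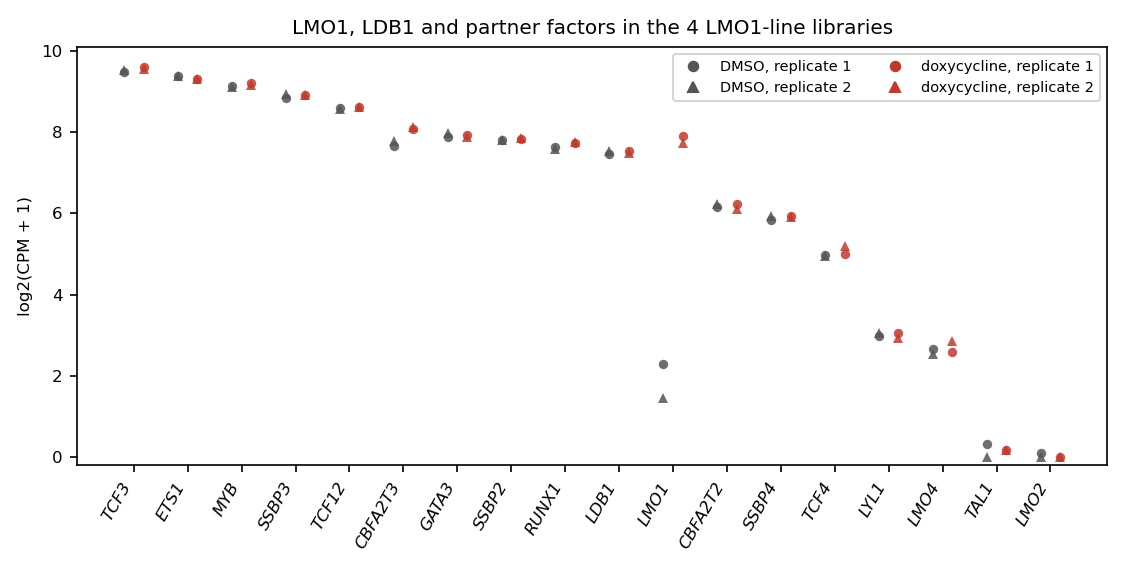
Level of the 18 tested LIM-only, LDB1 and partner genes in each LMO1-line library, as log2(CPM + 1) on the vertical axis, with genes ordered by level. Grey points are DMSO and red points doxycycline, circles replicate 1 and triangles replicate 2. LMO1 is the gene whose treatments lie far apart, and CBFA2T3 is shifted by 0.37.

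Across the transcriptome, 349 of 16287 tested genes were called, 192 higher (1.18% of those tested) and 157 lower (0.964%). Nearly all changes were small. The median size was 0.292 on the log2 scale, 181 of the 349 changed by less than 0.3, and 20 by at least 1, of which 12 rose and 8 fell. The median change of all tested genes was 0.0029. In all 349 the doxycycline libraries lay outside the range of the DMSO libraries, as they did in 41.1% of all tested genes (20.8% higher and 20.3% lower). In bulk RNA, fewer cells that express a gene and less of its RNA per cell cannot be told apart. Of the 349, 317 are protein coding. At an unadjusted p under 0.05 there were 1966 genes. DESeq2 called 218, and the count was 224 without DMSO replicate 2, 165 without doxycycline replicate 1 and 155 without doxycycline replicate 2. The authors' deposited table held 113 genes with an adjusted p under 0.05 for this line, of which 112 are among the 349. It gave an adjusted p for 3705 genes, against 16287 tested here, so the 2 counts come from unlike sets of genes.

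**Figure D2:**
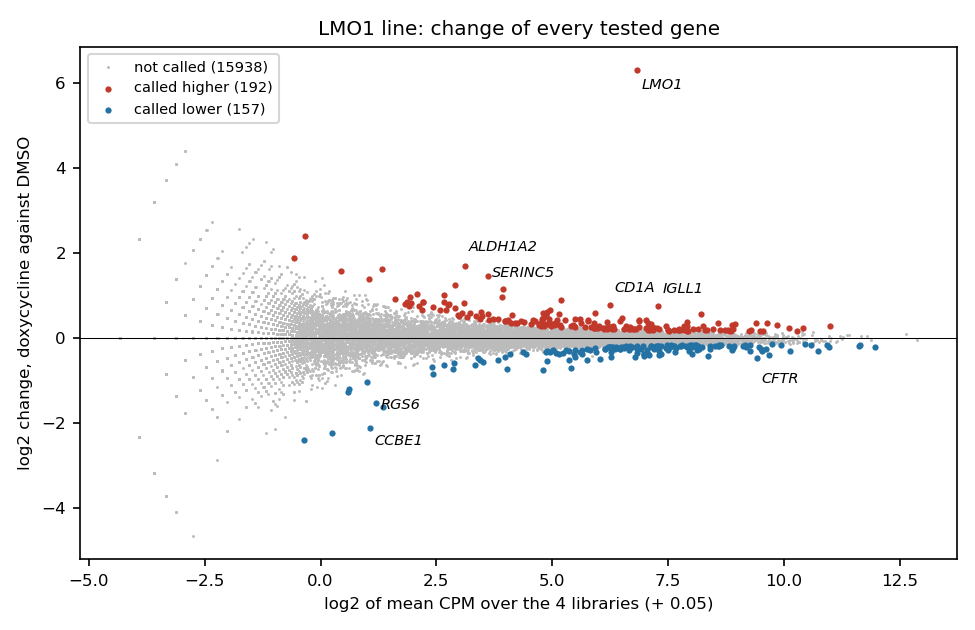
Log2 change with doxycycline against the log2 of the mean CPM, for every tested gene of the LMO1 line. Red points are the 192 genes called higher, blue points the 157 called lower and grey points the rest. LMO1 stands alone at 6.31, and most called genes lie close to 0 at levels where counts are high.

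Receptor recombination genes and genes of cortical thymocytes, the immature T cells of the outer thymus, formed a list with 17 tested members. Of these 9 were called higher, against 1.18% of all genes, and 0 lower, with a list median of 0.242. All 5 CD1 genes were among them. Members of this and the later lists were chosen with earlier results of these data known. A count above the share of all genes is therefore no independent support. CD1 molecules present lipid antigens and mark cortical thymocytes. CD1A measured 57.8 and 54.1 CPM with DMSO and 99.1 and 92.1 CPM with doxycycline, a change of 0.77 (SE 0.06, adjusted p = 2.6e-16). CD1C went from 22.003 and 22.4 to 34.6 and 31.7 CPM (0.58, adjusted p = 1.9e-06). CD1D went from 22.9 and 23.9 to 34.6 and 34.96 CPM (0.57, adjusted p = 1.2e-06). In each the higher DMSO library lay well below the lower doxycycline library. CD1E, at 1826 and 1866 against 2106 and 2394 CPM, rose by 0.29 (adjusted p = 4.3e-06). CD1B, at 1249 and 1256 against 1453 and 1509 CPM, rose by 0.24 (adjusted p = 5.7e-05). The 5 genes lie side by side on chromosome 1 in RefSeq, and the treatment of reads that match several members of the family in counting is not known, so their split among the 5 is uncertain.

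The regions just before 4 of these 5 genes are shown because the genes moved together. They are the 250 bases up to the annotated start, 5′ to 3′ on the gene's strand, from RefSeq's GRCh38.p14 promoter table, with E-boxes (CANNTG, the same on both strands) in capitals. CD1A is at chr1:158248086-158248335, CD1C at chr1:158289673-158289922, CD1D at chr1:158179697-158179946 and CD1E at chr1:158353644-158353893, all on the plus strand and ending at the base before the first exon.
CD1A: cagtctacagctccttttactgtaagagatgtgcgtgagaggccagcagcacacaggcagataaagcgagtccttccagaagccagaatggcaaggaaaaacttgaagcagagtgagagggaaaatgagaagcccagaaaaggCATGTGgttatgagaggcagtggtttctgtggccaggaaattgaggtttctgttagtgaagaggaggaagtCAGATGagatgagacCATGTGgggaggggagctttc
CD1C: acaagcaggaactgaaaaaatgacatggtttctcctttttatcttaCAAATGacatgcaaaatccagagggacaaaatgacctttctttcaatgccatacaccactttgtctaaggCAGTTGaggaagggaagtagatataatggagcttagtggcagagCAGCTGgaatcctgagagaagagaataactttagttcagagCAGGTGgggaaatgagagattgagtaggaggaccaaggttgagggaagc
CD1D: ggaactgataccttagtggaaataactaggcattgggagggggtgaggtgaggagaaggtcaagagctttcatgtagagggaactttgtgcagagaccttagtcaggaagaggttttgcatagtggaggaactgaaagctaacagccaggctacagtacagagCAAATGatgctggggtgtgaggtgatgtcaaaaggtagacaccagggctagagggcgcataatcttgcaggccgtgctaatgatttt
CD1E: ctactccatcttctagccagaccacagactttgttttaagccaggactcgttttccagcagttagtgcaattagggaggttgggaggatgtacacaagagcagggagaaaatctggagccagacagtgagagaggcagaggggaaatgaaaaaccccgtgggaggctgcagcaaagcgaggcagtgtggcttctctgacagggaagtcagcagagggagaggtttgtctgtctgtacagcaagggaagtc

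The CD1A window held 3 E-boxes, one of them CAGATG, which starts 36 bases before the gene's start. The CD1C window held 4, among them CAGGTG at 49 bases, the CD1D window 1 and the CD1E window 0. The GATA motif AGATAA occurred once, on either strand, in the CD1A and in the CD1C window. A match is a description of letters and no evidence of binding. Over all genes, a promoter was matched for 9757 of the 16287 tested (59.9%), 128 of the 192 called higher (66.7%) and 120 of the 157 called lower (76.4%). With fewer than 80% matched in each set, a comparison of motif shares between them is void. For orientation only, an E-box occurred in 54.1% of the 9757 windows, in 57.8% of the 128 and in 56.7% of the 120. CAGATG, searched on both strands and a subset of the E-boxes, occurred in 8.15%, 14.1% and 10.8%.

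The other members called higher were IGLL1, CD99, DNTT and ARPP21. IGLL1, a surrogate light chain gene of the pre-B-cell receptor, had 112 and 119 CPM with DMSO and 183 and 208 CPM with doxycycline (0.76, SE 0.05, adjusted p = 1.8e-17). It had the smallest p of all genes in the line. DNTT, the enzyme that adds untemplated bases at receptor joints, had 66.7 and 59.4 against 84.2 and 80.0 CPM (0.38, adjusted p = 6.8e-06). CD99, a surface glycoprotein of immature T cells, had 326 and 343 against 433 and 426 CPM (0.36, adjusted p = 2.8e-08). ARPP21, expressed in double-positive thymocytes, had 43.9 and 49.6 against 60.5 and 64.0 CPM (0.41, adjusted p = 5.9e-05). The treatments did not overlap in any of the 4. The recombinase genes were flat. RAG1 measured 1068 and 1074 against 1061 and 1095 CPM (0.01, adjusted p = 0.99), and RAG2 239 and 242 against 218 and 233 CPM (-0.09, adjusted p = 0.50). PTCRA, CD4, CD8A and CD8B had changes of 0.19, 0.12, 0.09 and 0.06 and did not pass. The number called higher was 9 or 10 under every alternative run.

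Of the 9 members called, 8 had a response that differed from that of the TAL1 line. This held for 29.8% of the 349 genes called in the LMO1 line. Over all genes it was 0.939% (0.553% with the higher and 0.387% with the lower response in the LMO1 line). The difference reuses the LMO1-line libraries that made the calls, so called genes are favoured in it. The response was larger by 1.14 for IGLL1 (adjusted p = 1.3e-19), by 0.87 for CD1A (adjusted p = 2.1e-10) and by 0.76 for ARPP21 (adjusted p = 2.1e-07). CD1C was the exception, with a difference of 0.46 (adjusted p = 0.082). IGLL1 (-0.38) and ARPP21 (-0.35) fell in the TAL1 line. With both factors, in the TAL1/LMO1 line, 7 of the 9 fell and 2 rose, where 31.7% of all genes were called lower and 28.5% higher. The falls were DNTT at -3.63, ARPP21 at -3.29, CD1E at -1.59 and CD1A at -0.95, and the rises were IGLL1 at 2.47 and CD99 at 1.01. All 9 responses differed between the LMO1 and the TAL1/LMO1 line, as did 79.7% of the 349 called genes and 45.4% of all genes.

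Among amino acid response genes, the targets of the stress factor ATF4, 10 of 25 tested members were called higher, against 1.18% of all genes, and 0 lower. The list median was 0.153, and 6 members lay below 0. SLC7A11, which imports cystine in exchange for glutamate, had 4.19 and 4.69 CPM with DMSO and 9.76 and 11.2 CPM with doxycycline (1.24, SE 0.15, adjusted p = 1.6e-08). SLC7A5, a transporter of large neutral amino acids, had 703 and 696 against 907 and 889 CPM (0.36, SE 0.04, adjusted p = 4.8e-09). Its partner SLC3A2, the heavy chain, had 196 and 196 against 223 and 220 CPM (0.18, adjusted p = 0.037). In these 3 transporters the doxycycline libraries were clear of the DMSO libraries.

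Among regulators, the transcription factor ATF5 had 220 and 257 against 357 and 344 CPM (0.56, SE 0.05, adjusted p = 5.1e-10). TRIB3, a pseudokinase that restrains ATF4 signalling, had 37.3 and 38.5 against 50.3 and 53.7 CPM (0.46, adjusted p = 5.5e-06). SESN2, a stress-induced inhibitor of mTORC1, had 27.8 and 30.6 against 39.2 and 39.1 CPM (0.42, adjusted p = 0.00011). CEBPB (0.33), the glutathione-degrading CHAC1 (0.84), the serine pathway enzyme SHMT2 (0.22) and the alanyl-tRNA synthetase AARS (0.18) were also higher, with adjusted p-values from 0.014 to 0.046. The mRNA of ATF4 itself did not pass (-0.03, adjusted p = 0.84), nor did DDIT3 (-0.03, adjusted p = 0.95) or ASNS (-0.03, adjusted p = 0.97), 3 central genes of the response. The count of 10 depended on single libraries and on the tool: it was 5 by DESeq2, 5 higher and 1 lower without DMSO replicate 1, 6 without DMSO replicate 2 and 5 without doxycycline replicate 1. ATF5, SLC7A5, SLC7A11, TRIB3 and SESN2 kept the call with each library left out.

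In the TAL1 line 0 members of the ATF4 list were called higher and 2 lower, against 0.982% and 0.853% of all genes. The difference between the responses was called for 8 of the 10. It was called for 29.8% of the 349 genes called in the LMO1 line and for 0.939% of all genes. Examples were 0.71 for ATF5 (adjusted p = 2.8e-09), 0.46 for SLC7A5 (adjusted p = 1.0e-07) and 0.66 for TRIB3 (adjusted p = 1.2e-06). CHAC1 (0.86, adjusted p = 0.13) and AARS (0.23, adjusted p = 0.20) were the exceptions. PHGDH and MTHFD2, enzymes of serine and folate metabolism, differed from the TAL1 line (0.36 and 0.27, adjusted p = 0.0010 and 0.031) without being called in the LMO1 line. The TAL1/LMO1 line had 5 of the 10 higher and 4 lower, where 28.5% and 31.7% of all genes were. SLC7A11 was among those that fell there (-1.03), and SLC7A5 rose there by 0.37, with a difference of -0.01 between the responses (adjusted p = 0.93).

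Among glycolysis and hypoxia genes, 14 of 30 tested members were called lower, where 0.964% of all genes were, and 0 higher. The other 16 did not pass, and 4 of the 30 lay above 0. The list median was -0.201, and -0.130 without DMSO replicate 2. Enzymes of most steps from glucose to lactate were among the 14. The glucose transporter SLC2A1 had 64.9 and 72.1 CPM with DMSO and 56.5 and 51.9 CPM with doxycycline (-0.34, adjusted p = 0.00056). Hexokinase HK2 had 156 and 161 against 134 and 132 CPM (-0.25, adjusted p = 0.0013). PFKFB3, which makes the activator of phosphofructokinase, had 79.2 and 98.0 against 64.6 and 65.2 CPM (-0.45, adjusted p = 6.1e-05). The doxycycline libraries were below both DMSO libraries in each.

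Further down the pathway, aldolase ALDOA (-0.29), triose phosphate isomerase TPI1 (-0.26), GAPDH (-0.21), PGK1 (-0.18) and the isomerase GPI (-0.18) fell. Enolase ENO1 had 1792 and 1998 CPM with DMSO and 1554 and 1491 CPM with doxycycline (-0.32, SE 0.04, adjusted p = 1.4e-07). Pyruvate kinase PKM had 1166 and 1321 against 1014 and 995 CPM (-0.31, SE 0.04, adjusted p = 1.2e-06). Lactate dehydrogenase LDHA had 863 and 994 against 714 and 694 CPM (-0.40, adjusted p = 0.00018). The hypoxia-responsive kinase PDK1 (-0.52), prolyl hydroxylase P4HA1 (-0.38) and histone demethylase KDM3A (-0.20) completed the 14. VEGFA, another hypoxia target, did not pass (0.05, adjusted p = 0.80).

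DMSO replicate 2 carried the higher value in all 14 called genes, which summed to 10758 and 11836 CPM with DMSO and 9517 and 9316 CPM with doxycycline. The number called lower was 17 without DMSO replicate 1, 8 without DMSO replicate 2, 11 without doxycycline replicate 1 and 10 without doxycycline replicate 2. In the TAL1 line 4 of the 14 (ENO1, ALDOA, GAPDH and HK2) were called lower too, against 0.853% of all genes. PKM was the single member of the 14 whose response differed from the TAL1 line (by -0.30, adjusted p = 0.0028). In the TAL1/LMO1 line 10 of the 14 fell and 3 rose, against 31.7% and 28.5% of all genes, the latter being PKM (0.91), PGK1 (0.60) and KDM3A (0.31).

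**Figure D3:**
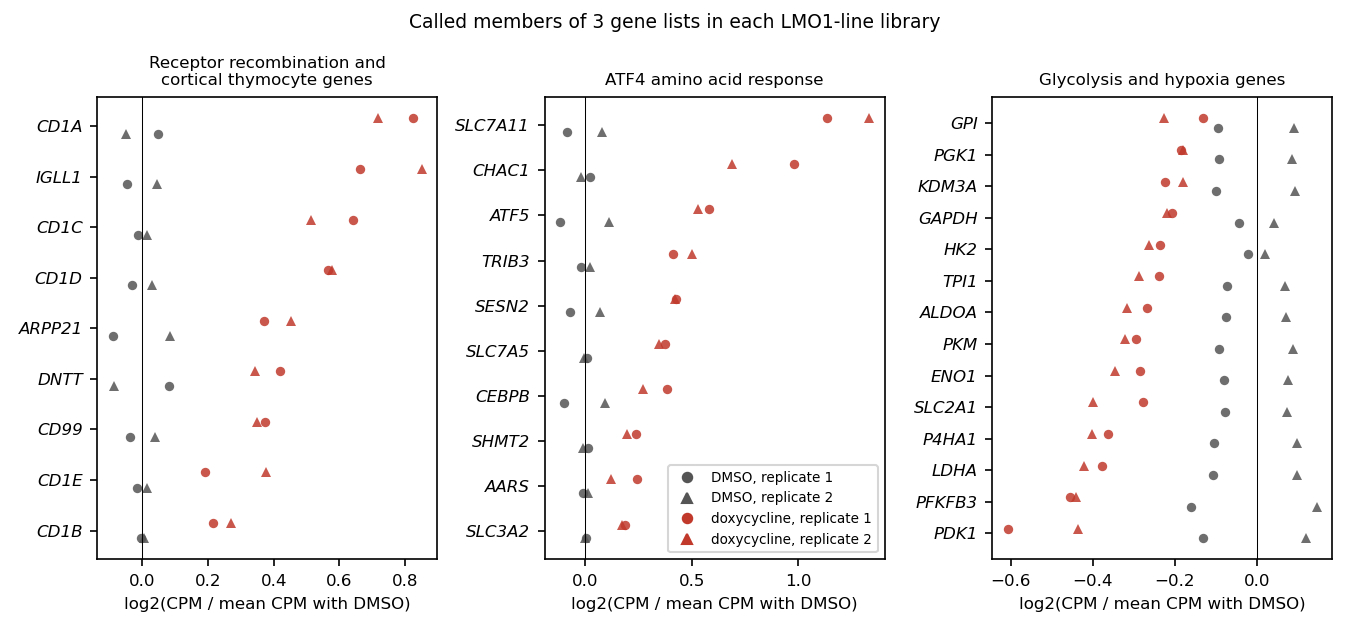
Called members of the 3 lists in each LMO1-line library, as log2 of the CPM over the mean CPM with DMSO (horizontal axis). Grey is DMSO, red is doxycycline, circles are replicate 1 and triangles replicate 2. The 9 thymocyte and 10 ATF4 genes lie to the right of their DMSO points and the 14 glycolysis and hypoxia genes to the left, with DMSO replicate 2 the higher DMSO point in each of the 14.

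**Figure D4:**
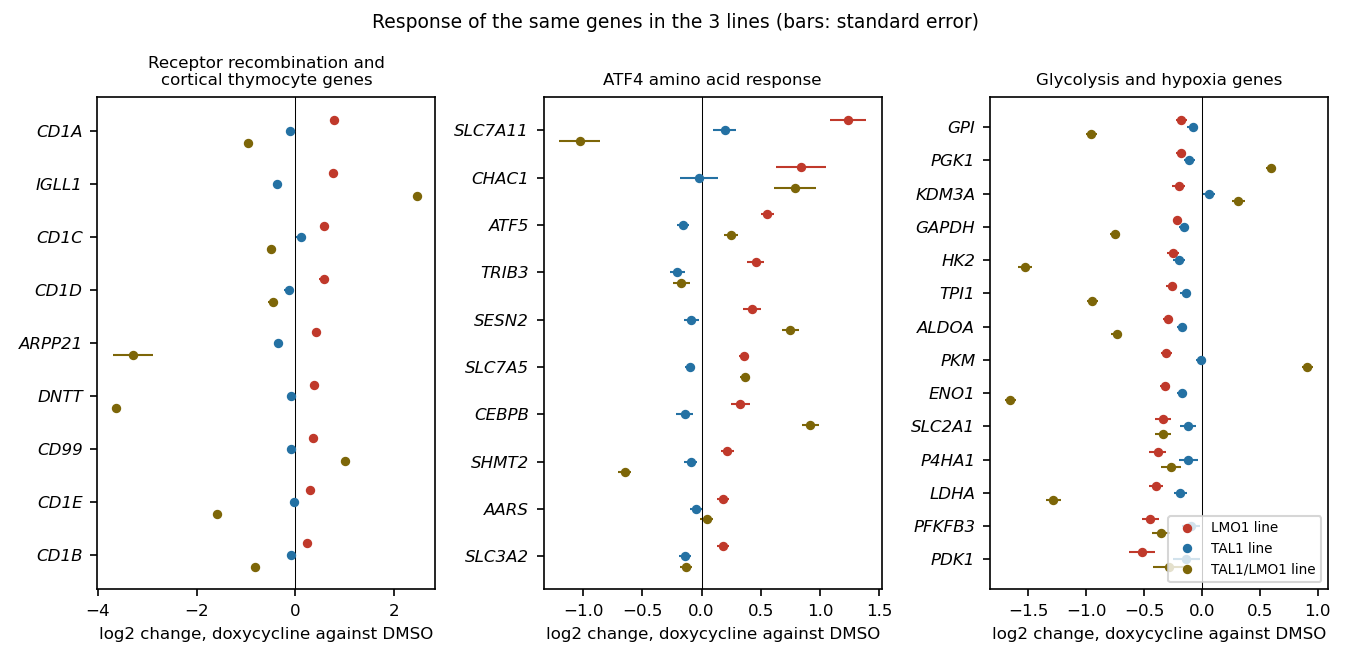
Log2 change with doxycycline of the same called genes in the LMO1, TAL1 and TAL1/LMO1 lines, with bars for the standard error. The thymocyte genes rise with LMO1 alone, while 7 of the 9 fall in the TAL1/LMO1 line.

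Genes described as activated by TAL1 complexes in T-ALL gave 3 of 14 tested members higher (IL7R, CBFA2T3, ALDH1A2) and 0 lower, against 1.18% and 0.964% of all genes, with a list median of 0.0507. ALDH1A2, an enzyme of retinoic acid synthesis, had 4.19 and 3.91 CPM with DMSO and 13.1 and 13.1 CPM with doxycycline. Both induced libraries were about equal and clear of the vehicle (log2 1.69, SE 0.24, adjusted p = 0.0022). The adjusted p reached 0.079 with 1 library left out, and the call was lost without DMSO replicate 2 or either doxycycline library. With TAL1 and LMO1 together ALDH1A2 reached 493 and 524 CPM with doxycycline, so the level with LMO1 alone was 2.57% and 2.58% of that mean. TAL1, which averaged 900 CPM in those same libraries, was at 0.0147% and 0.0144% of its level there in the same 2 libraries of the LMO1 line. The response of ALDH1A2 was smaller than in the TAL1/LMO1 line by 6.21 (adjusted p = 4.0e-08) and was not shown to differ from the TAL1 line (1.89, adjusted p = 0.28). Members that did not pass were STAT5A (1.25, adjusted p = 0.070), ARID5B (0.30, adjusted p = 0.19), CDK6, TRIB2, PTPN7 and LYL1.

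Cytokine receptor and STAT genes had 4 of 30 members higher, against 1.18% of all genes, and 0 lower. IL7R, the receptor for the T-cell survival factor interleukin 7, had 103 and 94.9 against 131 and 137 CPM (0.43, SE 0.06, adjusted p = 1.1e-07), a response larger than in the TAL1 line by 0.56 (adjusted p = 3.2e-07). It fell in the TAL1/LMO1 line (-1.74). IL15RA rose by 0.61 (adjusted p = 0.0015), with adjusted p-values up to 0.13 without DMSO replicate 1 or doxycycline replicate 2. The signal transducers STAT5B (0.28, adjusted p = 1.1e-05) and STAT3 (0.24, adjusted p = 0.0010) rose in the TAL1 line as well, by 0.18 and 0.24. With both factors they rose by 2.22 and 2.29.

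Among NOTCH receptors and targets 3 of 18 were higher (NOTCH3, IL7R, CR2), against 1.18% of all genes, and 0 lower. NOTCH3, a receptor that is itself a NOTCH target, had 589 and 589 CPM with DMSO and 752 and 750 CPM with doxycycline (0.35, SE 0.04, adjusted p = 1.6e-08). The replicates were almost identical and the treatments far apart. It fell in the TAL1 line (-0.20) and in the TAL1/LMO1 line (-1.79), and both differences were called (adjusted p = 1.2e-09 and 7.5e-42). CR2 rose by 0.18 (adjusted p = 0.021, up to 0.49 with 1 library left out).

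T-lineage transcription factors had 3 of 20 higher and 1 lower, against 1.18% and 0.964% of all genes. IKZF1, the lymphoid factor Ikaros, had 419 and 426 against 525 and 515 CPM (0.30, SE 0.04, adjusted p = 1.1e-06). The genome organizer SATB1 had 169 and 180 against 141 and 139 CPM (-0.32, adjusted p = 1.4e-05). KLF13 (0.17, adjusted p = 0.036) and FLI1 (0.21, adjusted p = 0.039) lost the call with any 1 library left out. T-cell receptor and signalling genes had 2 of 27 higher, against the same 1.18%. CD7 rose from 2.62 and 2.93 to 4.22 and 5.13 CPM (0.75, adjusted p = 0.017) and CD5 by 0.24 (adjusted p = 0.030). Their adjusted p-values rose to 0.34 and 0.64 with 1 library left out.

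In the remaining lists few members were called, to be read against 1.18% of all genes called higher. The integrins ITGA4 (0.34, adjusted p = 2.9e-08) and ITGA6 (0.22, adjusted p = 0.021) were 2 of 23 homing genes. ITGA4 also rose in the TAL1 line (0.28), and its responses there and here did not differ detectably (adjusted p = 0.93). The pro-apoptotic BMF was 1 of 15 BCL2 family genes, with 72.5 and 79.6 against 109 and 103 CPM (0.48, SE 0.06, adjusted p = 1.6e-08), larger than in the TAL1 line by 0.43 (adjusted p = 0.0067). The early response genes ATF3 (0.57, adjusted p = 0.0020) and IER5 (0.29, adjusted p = 0.0037) were 2 of 27, and SESN2 was 1 of 23 p53 targets. RBL1 (0.22) was 1 of 17 G1 regulators.

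The counts of lower members stand against 0.964% of all genes, so that lists of about 30 with 1 member called are near that share. Lower were 3 of 30 MYC targets (ODC1 -0.26, LYAR -0.27, DKC1 -0.17), 3 of 30 mitochondrial ribosomal proteins (MRPS2 -0.29, MRPL9 -0.25, MRPL11 -0.22), BUB1 (-0.16) of 28 mitosis genes, RRM2 (-0.27) of 35 replication genes, ACAT2 (-0.27) of 26 cholesterol genes and CD83 (-0.33) of 17 NF-kappaB genes. JARID2, a subunit that recruits the repressive complex PRC2, had 131 and 125 against 100 and 98.9 CPM (-0.36, SE 0.05, adjusted p = 9.5e-07), and PHF19 (-0.17) joined it from a list of 19. JARID2 rose in both other lines, by 0.19 and 1.23. ODC1, MRPS2, RRM2 and JARID2 kept the call with each library left out, and LYAR, DKC1, MRPL9, MRPL11, BUB1, ACAT2, CD83, PHF19, RBL1, ITGA6, ATF3 and IER5 lost it with at least 1 left out. By edgeR's test, 0 members were called among 29 interferon-stimulated genes, 34 respiratory chain subunits, 4 GIMAP GTPases, 3 ID inhibitors and 3 genes of LMO2 self-renewal. DESeq2 called 0 in each as well, but members to which it gave no adjusted p were counted as not called there. At an unadjusted p under 0.05 there were 5, 12, 2, 0 and 0 members, in that order. All 5 interferon genes were higher and 11 of the 12 respiratory chain genes lower. These counts are to be read against 1966 of all 16287 tested genes at the same threshold. Their smallest p-values belonged to TAP1 (0.17, adjusted p = 0.14), COX7B (-0.19, adjusted p = 0.057), GIMAP1 (0.90, adjusted p = 0.27), ID3 (-0.15, adjusted p = 0.52) and LIN28B (0.09, adjusted p = 0.69).

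The largest rises after LMO1 and ALDH1A2 belonged to genes of several kinds. SERINC5, a membrane protein known to restrict retroviruses, had 6.61 and 6.32 CPM with DMSO and 17.1 and 18.5 CPM with doxycycline (1.46, SE 0.13, adjusted p = 5.2e-14). MFAP4, an extracellular matrix protein, had 8.45 and 10.6 against 21.9 and 20.5 CPM (1.16, SE 0.11, adjusted p = 1.4e-12). EPHA2, an ephrin receptor kinase, had 25.6 and 25.6 against 52.2 and 42.2 CPM (0.88, SE 0.08, adjusted p = 8.0e-13). In all 3 the response differed from the TAL1 line, by 1.68, 1.19 and 1.10. SLC6A9, a glycine transporter, had 9.69 and 10.6 against 19.7 and 19.95 CPM (0.97, SE 0.11, adjusted p = 3.7e-10).

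DOCK5, an exchange factor for the GTPase Rac, had 1.57 and 0.847 against 4.29 and 3.18 CPM (1.62, SE 0.28, adjusted p = 5.6e-05). EPSTI1, known as an interferon-induced gene, had 2.95 and 2.54 against 5.41 and 5.85 CPM (1.03, adjusted p = 0.00018), and reached 145 and 144 CPM in the TAL1/LMO1 line. BEST1, a chloride channel gene, rose by 1.02 (adjusted p = 1.7e-05). SFRP5, CPNE4, PODXL2, DSCAML1 and the potassium channel gene KCNQ1 rose by 0.84 to 1.38 from DMSO levels under 4 CPM, and each lost the call with at least 1 library left out, with adjusted p-values up to 0.49.

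The largest falls were mostly of genes at low levels. CCBE1, a secreted factor of lymph vessel growth, had 3.21 and 3.45 CPM with DMSO and 0.923 and 0.585 CPM with doxycycline (-2.13, SE 0.33, adjusted p = 3.9e-06). RGS6, a regulator of G-protein signalling, had 3.47 and 3.19 against 1.06 and 1.23 CPM (-1.53, SE 0.28, adjusted p = 9.8e-05). LRIG1, a brake on growth factor receptors, had 6.42 and 7.24 against 3.43 and 4.09 CPM (-0.86, adjusted p = 0.00026). The treatments were separate in each. The protease gene LGMN had 47.2 and 57.4 against 33.7 and 29.8 CPM (-0.72, SE 0.08, adjusted p = 3.9e-09), and C9orf116 had 32.6 and 37.1 against 20.6 and 20.9 CPM (-0.75, adjusted p = 1.9e-08). ANXA1, a phospholipid-binding protein, had 19.5 and 20.9 against 11.5 and 12.9 CPM (-0.73, SE 0.12, adjusted p = 1.1e-05). LIFR, KLKB1, CPB2, CHST7 and the adaptor gene NEDD9 fell by 0.69 to 1.27, and lost the call with at least 1 library left out (adjusted p up to 0.48).

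Of 6 tested segments of the T-cell receptor gamma locus, 3 were called lower, against 0.964% of all genes, and 0 higher. TRGV3 fell from 64.9 and 61.7 to 45.5 and 42.2 CPM (-0.53, SE 0.07, adjusted p = 1.6e-08) and TRGC1 by 0.57 (adjusted p = 0.0025, and 0.063 without doxycycline replicate 1). TRGC2 was the other (-0.41, adjusted p = 2.4e-08), while TRGV2 (-0.37), TRGV1 (-0.22) and TRGJ2 (0.70), all under 3 CPM, did not pass. TRGV3 and TRGC1 rose in the TAL1 line (0.28 and 0.62) and in the TAL1/LMO1 line (0.99 and 1.05), and their differences from the TAL1 line were called. Of 6 tested RANBP2 and RGPD genes, 4 were called lower, against 0.964% of all genes, and 0 higher. RGPD3 fell from 397 and 362 to 268 and 293 CPM (-0.44, adjusted p = 7.0e-10). The others were RGPD1 (-0.55, adjusted p = 9.3e-06), RGPD2 (-0.63, adjusted p = 0.0021, up to 0.19 with 1 library left out) and RANBP2 (-0.20, adjusted p = 0.014). The gamma segments and the RGPD genes have near-identical copies, so the split of reads among them is uncertain.

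**Figure D5:**
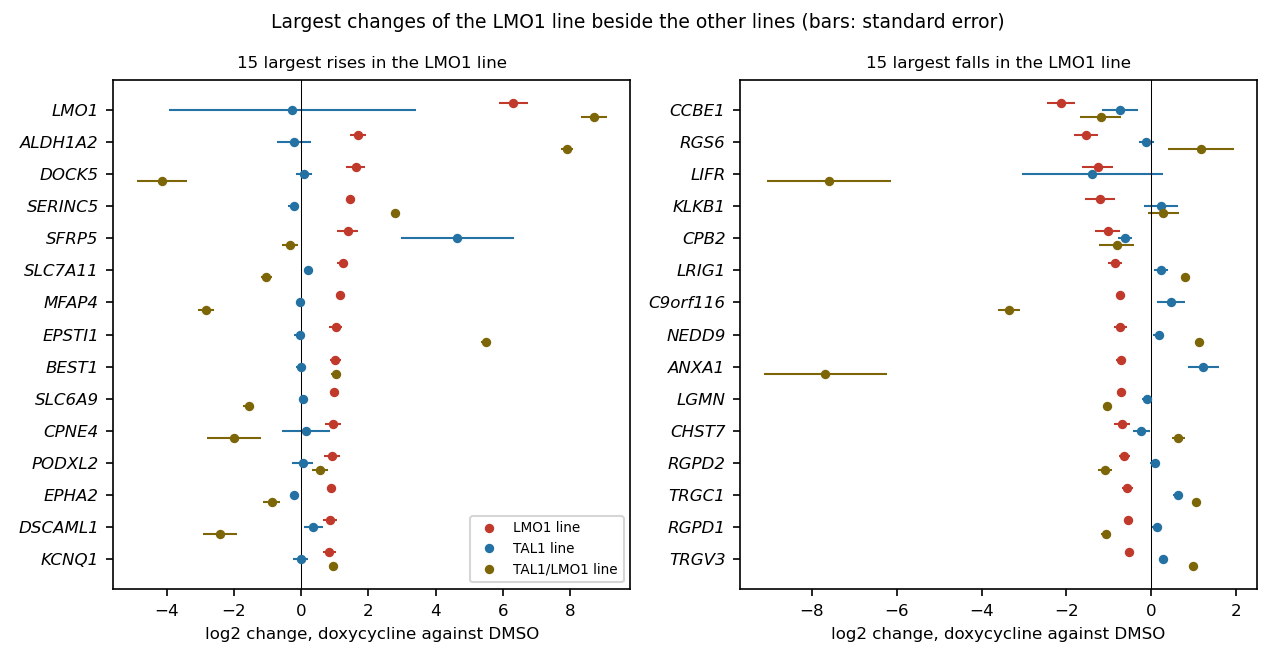
The 15 largest rises and 15 largest falls of the LMO1 line with their log2 changes in the 3 lines, bars showing the standard error. Points of the LMO1 line range from -2.13 (CCBE1) to 6.31 (LMO1), while the TAL1 line mostly lies near 0 and the TAL1/LMO1 line often lies far on either side.

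CFTR, a chloride channel abundant in this line, fell from 807 and 774 CPM with DMSO to 553 and 590 CPM with doxycycline. The log2 change was -0.47 (SE 0.06, adjusted p = 8.9e-05 by edgeR, and 0.068 by DESeq2 over all 12 libraries). The authors' deposited DESeq2 result for this line gave -0.47 as well, with an adjusted p of 6.0e-17. CFTR fell in the TAL1/LMO1 line too, from 699 and 673 to 402 and 410 CPM (-0.76). The TAL1 line held little of it, 6.82 and 6.08 CPM with DMSO and 19.5 and 12.7 with doxycycline, so the called difference of -1.79 between those responses rests on a low level there.

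The LMO1 response was then set against the other lines as a whole, with which it shares no library. The TAL1 line had 299 genes called (1.84%). Of the 349 genes of the LMO1 line 48 were called there too, which is 13.8% of the one list and 16.1% of the other, 32 in the same and 16 in the opposite direction. The difference between the responses was called for 153 genes (0.939%), and 104 of these were called in the LMO1 line, 71 higher and 33 lower. The TAL1/LMO1 line had 9812 genes called (60.2%), which took in 311 of the 349 (89.1% of the LMO1 genes and 3.17% of the larger list). Of the 192 genes called higher with LMO1 alone, 89 were higher and 79 lower there, and of the 157 called lower 118 were lower and 25 higher. For 278 of the 349 (79.7%) the size or direction of the response differed between those lines, against 45.4% of all genes. The calls and these differences use the same LMO1-line libraries, so called genes are favoured.

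A set of 28 genes was called in the same direction in all 3 lines, 10 higher and 18 lower. ITGA4, STAT5B, STAT3 and FLI1 were among those higher, and the glycolytic genes ENO1, ALDOA, GAPDH and HK2 and the polyamine enzyme ODC1 among those lower. FMN1, a formin that nucleates actin, rose from 12.7 and 11.1 to 14.7 and 17.8 CPM (log2 0.45, adjusted p = 0.013, with adjusted p-values up to 0.45 when 1 library was left out). Its log2 change was 0.52 in the TAL1 line and 3.87 in the TAL1/LMO1 line. What the lines share besides the transgenes, doxycycline included, cannot be told apart from the transgenes in these 28.

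The lines differed before induction. Between the DMSO libraries of the LMO1 and TAL1 lines, 5925 genes were called (36.4%), 600 of them higher and 639 lower in the LMO1 line by at least 1 on the log2 scale. Against the TAL1/LMO1 line 6678 were called (41%). Of the 349 response genes, 269 and 278 were among them. CFTR was higher than in the TAL1 line by 6.94, whereas CD7 stood at -6.79 and IL7R at -1.87. CD1A was higher by 0.43. These contrasts were added after the data were seen. The differences between responses thus compare lines that did not start from the same levels, and the part of this in them was not tested.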

How the data were processed

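RNA of HPB-ALL cells was sequenced in 12 libraries (3 lines, 2 treatments, 2 replicates), as strand-specific libraries with paired 100-bp reads, per the labels' protocols. The submitters' processing notes name the tools DESeq2 1.12.4, STAR 2.5.2a and featureCounts, the last without a version, and the build hg19. Whether counting used strand is not stated in any source at hand. The authors deposited raw counts per gene for 63677 genes, of which 29971 were 0 in all libraries, as were all 13 mitochondrial mRNAs. The authors' deposited DESeq2 table for the LMO1 line gave gene symbols and, per the file headers, a mean normalised count (a signal), log2 fold changes with standard errors, a Wald score, and p-values. Gene types came from GENCODE by identifier and matched 96.6% of tested genes.

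Genes kept by filterByExpr (16287) were fitted in edgeR 4.0.16 (R 4.3.3) with TMM scaling and 1 mean per group over all 12 libraries (6 residual degrees of freedom), by the robust quasi-likelihood test with Benjamini-Hochberg adjustment over all genes. Standard errors were derived from the fold change and the F statistic and set no lower than counting error. Intervals and floors cover counting error only. The method was run on simulated counts as a check of the code. Groups there had equal means except in planted genes, unlike these lines, so the run is no support for the calls. Replicate pairs differed by more than sampling noise in every group (chi-square per gene 1.73 to 2.79). Members and lists were chosen with earlier results of these data known. Named genes were the tested LMO1 partners, the 15 largest rises and falls among called genes with at least 2 CPM and no overlap, up to 4 called members per list (or the 2 with the smallest p), and the 5 largest differences per direction from each other line, with clones, pseudogenes, antisense genes and repeated symbols left out of ranked picks. Beyond these, further members of the thymocyte, ATF4, glycolysis and TAL1-activated lists and of the receptor gamma locus were named after their values were seen. RGPD3 and RANBP2 were too. Promoters came from RefSeq by Ensembl identifier or symbol. Alternatives were other scalings, filters, DESeq2, a replicate block, the LMO1 line alone and leaving out each library.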

Additional observations from a re-analysis of the deposited data

Results flagged for a closer look

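Responses that differed between lines, by the test of the difference itself, are given here as values. The LMO1 line differed from the TAL1 line in 153 genes and from the TAL1/LMO1 line in 7400. Against the TAL1 line, the log2 response of the LMO1 line was larger by 1.68 for SERINC5, 1.53 for DOCK5, 1.19 for MFAP4, 1.14 for IGLL1 and 1.10 for EPHA2. It was lower for ANXA1 (-1.95), CFTR (-1.79), RGS6 (-1.41), TRGC1 (-1.18) and LRIG1 (-1.08). Members called in the LMO1 line and in that difference numbered 8 in the thymocyte list, 8 in the ATF4 list and 2 each in the cytokine, early response, NOTCH and TAL1-activated lists.

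Against the TAL1/LMO1 line, the fitted response was larger for ANXA1 (6.95), LIFR (6.32), DOCK5 (5.76), SERTAD4 (5.52) and GPR56 (4.83), and smaller for ALDH1A2 (-6.21), EPSTI1 (-4.47), FMN1 (-3.42), RGS6 (-2.70) and HHIP (-2.44). ANXA1 and LIFR were listed at 0 in both doxycycline libraries of the TAL1/LMO1 line, so their fitted differences depend on the prior count and are no bounds. LMO1 itself was not called in the difference from either line (adjusted p = 0.89 and 0.10). Its difference from the TAL1 line was 6.57 with an SE of 4.73. The response of LMO1 was -0.27 (SE 3.67) in the TAL1 line and 6.31 (SE 0.43) in the LMO1 line. With so wide an error in the TAL1 line, the missing call does not decide whether the responses differ.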

How the results depend on the processing

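The 349 genes called in the LMO1 line became 218 with DESeq2 (101 higher, 117 lower) and between 155 and 284 with 1 library left out, where the remaining library of a group is assumed to vary like the others. Fewer libraries entered those fits, and for DESeq2 the cause was not tested. Under the other settings the count was 289 to 368. The split between higher and lower was 224 and 124 by total counts and 166 and 167 with DESeq2's size factors. Over genes above a minimum average level, no scaling shifted the log2 changes by a median of more than 0.0145. The rise of LMO1 held under every alternative run (log2 5.84 to 6.997 with 1 library left out). The differences from the TAL1 line numbered 104 to 166 and those from the TAL1/LMO1 line 5879 to 7389. With the replicate number as a replicate block the LMO1 line had 335 genes called. Deviations of same-numbered libraries had a correlation of -0.0497 in this line (0.0967 and 0.039 in the others, over 9638 genes). No pairing by number was seen, but 2 replicates per group cannot exclude one. Of 78 named genes called, 0 reversed, 43 kept the call under all alternatives, and 34 lost it with some library left out. An alternative that gave a gene no adjusted p was skipped for that gene and did not count as a loss. MFAP4 and CCBE1, among others, thus had 12 alternatives, where LMO1 had 13. The DESeq2 count of 218 took such genes as not called. Of 26 named genes not called, COX7B passed with DESeq2's size factors (adjusted p = 0.047). Depth limits genes below about 1 CPM, where a few counts set the fold.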

Other observations

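Chaperone genes, which were in no list above and were looked at after their values were seen, had 8 members called lower with doxycycline in the LMO1 line. All 8 tested subunits of the CCT chaperonin, which folds actin and tubulin, had changes between -0.197 and -0.106. Of them, 2 (CCT5 and CCT6A) were called lower, against 0.964% of all genes. A match by heat shock symbol gave 25 tested genes, which take in pseudogenes such as HSP90AB3P and HSPD1P1, and also HSPBP1 and HSPBAP1. Of these 25, 6 were called lower, against 0.964% of all genes, and 0 higher: HSPH1 (-0.26), HSPD1 (-0.20), HSP90AA1 (-0.19), HSP90AB1 (-0.17), HSPA5 (-0.16) and HSPA8 (-0.16). Cytosolic ribosomal protein genes had 6 of 78 called lower, against 0.964% of all genes, and a median of -0.086. Of the 78, 69 lay below 0, as did 7798 of all 16287 tested genes. None of the called chaperone or ribosomal genes was called in the difference from the TAL1 line. In the TAL1/LMO1 line all 8 CCT genes and all 78 ribosomal protein genes were called lower, where 31.7% of all genes were lower and 28.5% higher. Of the 25 matched by heat shock symbol, 15 were lower there, HSPBP1, HSP90AB3P and HSPD1P1 among them. Another 4 were higher, HSPBAP1 among them.

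ASZ1, the gene beside CFTR in RefSeq, had 31 and 27 counts with DMSO and 3 and 9 with doxycycline (log2 -2.25, adjusted p = 0.00073). The next tested genes on either side, ST7 (-0.32, adjusted p = 0.35) and CTTNBP2 (0.56, adjusted p = 0.88), were not called. ASZ1 was picked for its place after its value was seen.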
